A study of Mus musculus with 3 samples.

Results

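Ectodysplasin signalling was described in sorted embryonic mammary cells through 9 genes of the pathway, which were Eda, Edar, Edaradd, Eda2r, Traf6, Nfkb1, Nfkbia, Rela and Relb. The genes were chosen by name, as probe sets annotated with exactly 1 of these symbols. This gave 18 probe sets of 8 genes, out of 28898 probe sets of 17097 genes with a single symbol. Nfkb1 was not analysed here. All 3 arrays belonged to 1 group, CD49fHi Lgr5Hi mammary cells of female Lgr5-IRES-GFP embryos at embryonic day 14. CD49f is the integrin alpha 6 chain of basal epithelium, and green fluorescence from the Lgr5 locus marks cells in which this Wnt target gene is active. Every sample carried the reporter allele, each pooled the female embryos of 1 litter, and there was no second cell population, genotype or age to compare with. Epidermis was digested together with the mammary gland, so the sort rather than the dissection separated the cells. RNA from 813 or 2000 cells was amplified for 25 cycles, and the number is not given for each sample.

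Ectodysplasin, the product of Eda, is a ligand of the tumour necrosis factor family that is cut from the cell surface and acts on epithelial buds of hair, teeth, sweat glands and mammary glands. Its receptor Edar binds the adaptor Edaradd, which passes the signal through Traf6 and the kinases of the IKK complex. These kinases mark the inhibitor encoded by Nfkbia for breakdown and thereby release NF-kappaB dimers such as those with Rela into the nucleus. Mice that lack Eda, Edar or Edaradd share a defect of hair, teeth and sweat glands, and excess ectodysplasin in mouse skin gives extra mammary placodes.

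With no second group, each probe set was set against a background on its own array. The threshold was the 95th percentile of 78 olfactory and vomeronasal receptor genes, and on the log2 scale it was 6.29, 6.23 and 6.22 for replicates 1, 2 and 3. A gene was represented by its probe set of highest mean, and was called above background where the mean of its 3 values minus the thresholds exceeded 0 with a limma adjusted p under 0.05. By this rule 7 of the 8 measured members were above background, and 52.5% of all genes were. The median member lay 2.36 above the threshold on the log2 scale, and the median gene 0.63. At the level of probe sets 8 of 18 were called, which is near the 46.8% of all probe sets and therefore no result about these genes. Choosing the highest probe set favours genes that have several, and Eda, Edaradd, Traf6 and Edar had 5, 4, 3 and 2. All 4 of these genes had probe sets on both sides of the call, as did 2920 of the 7180 genes with several probe sets (40.7%). Levels of different genes were set side by side only by their distance from the threshold, and since each probe set binds with its own strength, these distances do not rank the amounts of RNA.

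**Figure D1:**
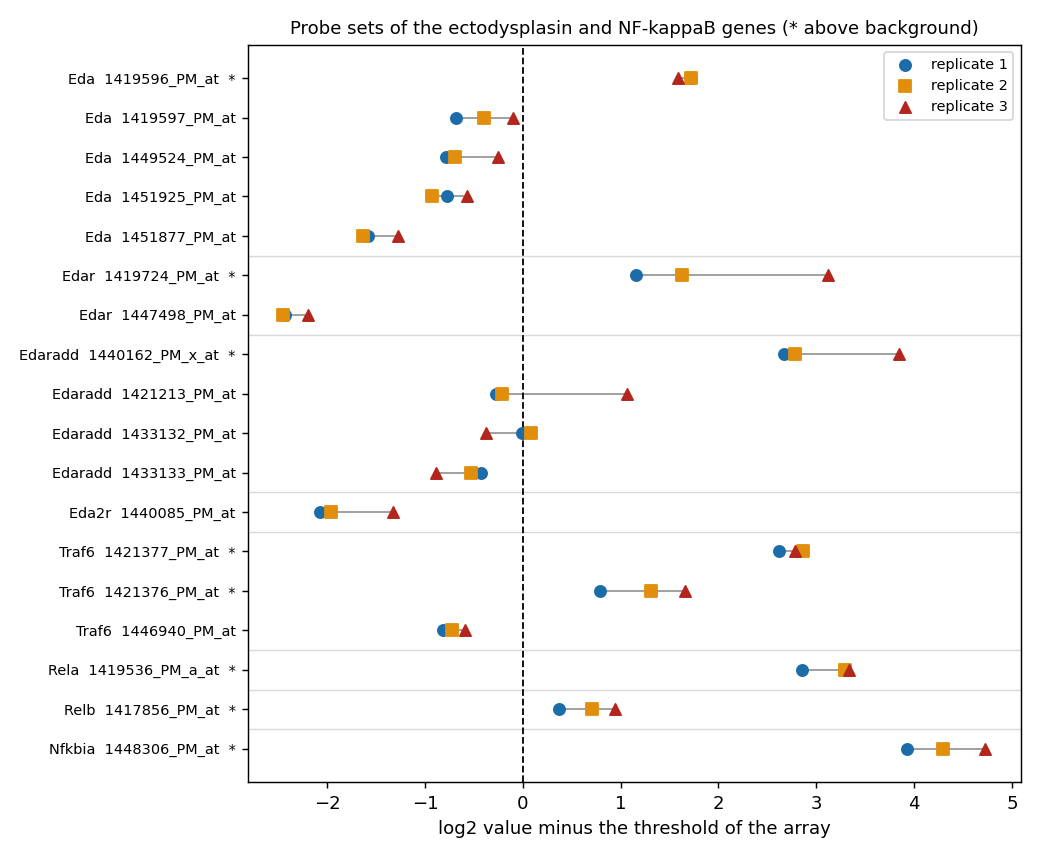
Log2 value minus the threshold of the array (horizontal axis) for each of the 18 probe sets, with 1 symbol per replicate, a line over their range and the threshold as a dashed line at 0; a star marks a probe set above background. Most of the probe sets lie furthest right on replicate 3, among them the called ones of Edar and Edaradd. Of 5 Eda probe sets 1 lies above the threshold.

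The sorted cells carried the markers of basal epithelium, and also most of those of dermal mesenchyme. All 6 basal markers and all 4 general epithelial markers were above background, among them Itga6 (10.37 ± 0.40, SD, n = 3), Krt5 (12.15 ± 0.16) and Epcam (10.31 ± 0.40). Of 7 dermal mesenchyme markers 6 were above background, with means of the 7 from 4.89 to 12.99. The collagen genes Col1a1 and Col3a1 stood at 12.99 ± 0.15 and 12.76 ± 0.13. Pdgfra was the marker not called, and lay below the threshold on all 3 arrays (4.89 ± 0.55). Leukocyte markers reached 2 of 7 (Cd68 and Fcer1g), and the defining leukocyte gene Ptprc was below the threshold at 4.03 ± 0.20. Endothelial, melanocyte and suprabasal markers reached 2 of 5, 2 of 5 and 1 of 5, beside 52.5% of all genes. Because each array held pooled cells, no member can be assigned to the epithelial cells alone, and fewer cells of a type cannot be told from less RNA per cell. The array medians were 6.25, 6.25 and 6.52, so replicate 3 stood apart.

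The ligand gene Eda was above background through a single probe set. On the log2 scale, probe set 1419596_PM_at had 8.01, 7.95 and 7.81 on replicates 1, 2 and 3, a mean of 7.93 ± 0.10 (SD, n = 3). In the fit over genes it lay 1.68 ± 0.13 (SE) above the threshold (limma adjusted p = 0.000171), and in the fit over probe sets the adjusted p was 0.000301. The range of this probe set over the litters, 0.20, was smaller than that of 85.0% of the genes above background. The other 4 Eda probe sets were below the threshold on all 3 arrays, with means of 5.86, 5.68, 5.49 and 4.75. Among them, 1419597_PM_at had 5.61, 5.84 and 6.12, and 1451877_PM_at had 4.71, 4.601 and 4.95. When the 5 probe sets were averaged, Eda fell below the threshold (-0.20). The call was also lost with a threshold from tissue-restricted genes (0.15 above it, adjusted p = 0.952). Eda is spliced into several transcripts, 2 of which give the ligand forms A1 for Edar and A2 for Eda2r. The annotation does not assign the probe sets to these forms, and the values therefore say nothing about which form was made.

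Edar, the receptor of the A1 form, differed most between the litters among the members. Probe set 1419724_PM_at had 7.44, 7.86 and 9.34 on replicates 1, 2 and 3 (8.21 ± 1.00, SD, n = 3). All 3 values were above their thresholds, by 1.15, 1.62 and 3.12, and the mean was 1.96 ± 0.40 (SE) above it (limma adjusted p = 0.00578). In the fit over probe sets the adjusted p was 0.00791. Replicate 3 was the high array. Its value exceeded the mean of the others by 1.69, and 0.947% of the genes above background had a larger difference (their median was 0.26). After quantile normalization of the 3 arrays the difference was 1.27, against a median of -0.12. Without replicate 3, Edar was still above background (1.39 above the threshold). The second probe set, 1447498_PM_at, had 3.86, 3.79 and 4.03, below the threshold on every array. The mean of both was -0.085 relative to the threshold, and the call was also lost with tissue-restricted genes (0.44, adjusted p = 0.661) or the brightest antigenomic control as background (0.83, adjusted p = 0.109).

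General epithelial markers were also higher on replicate 3. All 4 were highest there, with differences from 0.43 to 1.04, and Cdh1, the E-cadherin gene, had 7.02, 7.62 and 8.36. Of the 6 basal markers 4 were highest on replicate 3 (median difference 0.40), against 2 of 7 dermal mesenchyme markers (median -0.08). Of all genes 63.1% were highest on replicate 3 (median difference 0.22), so the share of basal markers was near that of all genes. After quantile normalization the median differences were 0.27 for general epithelial, 0.04 for basal and -0.23 for dermal mesenchyme markers, beside -0.10 for all genes. The suprabasal keratin gene Krt10 had 6.94, 7.70 and 9.18, while its list as a whole had 1 of 5 markers highest there. The part of these markers, of cell number or of the array in the Edar difference was not tested.

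The promoter of Edar is shown because Edar varied most and because signalling by Wnt through Lef and Tcf factors is known to act upstream of the ectodysplasin pathway in skin appendages. The sequence is that of RefSeq, build GRCm38.p6, chr10:58675697-58675946 on the minus strand, and covers the 250 bases before the annotated start. Capitals mark the only match to the Lef and Tcf core CTTTGAT, searched on both strands, 233 to 227 bases before the start. Of 32851 promoters of this length, 3.21% held this core. A match is a description of the letters and does not by itself show binding.
Edar: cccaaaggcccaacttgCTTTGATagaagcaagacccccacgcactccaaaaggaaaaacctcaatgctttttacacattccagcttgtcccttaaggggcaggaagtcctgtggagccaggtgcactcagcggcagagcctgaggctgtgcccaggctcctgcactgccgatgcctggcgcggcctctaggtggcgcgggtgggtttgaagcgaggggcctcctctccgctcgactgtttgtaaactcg

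Edaradd, which encodes the adaptor that binds the death domain of Edar, was called through a probe set of the kind that may cross-hybridise. Probe set 1440162_PM_x_at had 8.96, 9.01 and 10.07 on replicates 1, 2 and 3 (9.35 ± 0.63, SD, n = 3), 3.10 ± 0.27 (SE) above the threshold (limma adjusted p = 0.000240). Replicate 3 was again the high array, by 1.09 over the mean of the others and by 0.66 after quantile normalization. Probe set 1421213_PM_at showed a difference in the same direction around the threshold, with 6.02, 6.02 and 7.29, and was above it on replicate 3 alone. The remaining pair moved the other way, as 1433132_PM_at had 6.29, 6.32 and 5.85 and 1433133_PM_at had 5.87, 5.70 and 5.34. Probe sets of 1 gene thus differed by 1.27 and -0.45 between replicate 3 and the mean of the others. Without probe sets shared between transcripts or genes, Edaradd stood 0.28 above the threshold and was not called (adjusted p = 0.343).

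Eda2r, the receptor of the A2 form, was the member not above background. Its only probe set, 1440085_PM_at, had 4.22, 4.27 and 4.90, all below the thresholds, with a mean of -1.79 relative to them (4.46 ± 0.38 before subtraction, SD, n = 3). It was not called in any of the 10 alternative settings. A value below the threshold does not show that the RNA was absent.

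Traf6, which encodes the ubiquitin ligase that links the receptor complex to the kinases, had the smallest range among the probe sets that represent the members (0.19). Probe set 1421377_PM_at had 8.91, 9.10 and 9.01 on replicates 1, 2 and 3 (9.005 ± 0.10, SD, n = 3), 2.75 ± 0.14 (SE) above the threshold (limma adjusted p = 3.77e-05). A second one, 1421376_PM_at, was above background as well, with 7.08, 7.55 and 7.89. The third, 1446940_PM_at, had 5.48, 5.51 and 5.63, below the threshold on every array. Traf6 kept its call in all 10 alternatives, including the mean of its probe sets (1.21 above the threshold).

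Genes of the NF-kappaB dimers were both above background. Rela, the gene of the activating subunit p65, had 9.14, 9.53 and 9.55 on replicates 1, 2 and 3 (9.41 ± 0.23, SD, n = 3). This was 3.16 ± 0.16 (SE) above the threshold (limma adjusted p = 3.94e-05), and replicate 1 was the low array. Its only probe set, 1419536_PM_a_at, is shared between transcripts of the gene, so there was no value in the setting without shared probe sets, and the call held in the 9 settings that gave one. Relb, a subunit of the alternative NF-kappaB pathway, had 6.66, 6.94 and 7.17 (6.92 ± 0.26), 0.67 ± 0.16 (SE) above the threshold (limma adjusted p = 0.0107). It lay above the threshold on each array, but its call was lost with the 99th percentile of receptor genes (0.31 above it) and without replicate 2 (0.66, adjusted p = 0.0537). With tissue-restricted genes or the antigenomic control as background it lay below the threshold (-0.85 and -0.46).

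Nfkbia encodes the inhibitor that holds NF-kappaB in the cytoplasm, and is itself a known target gene of NF-kappaB. Its only probe set, 1448306_PM_at, had 10.21, 10.53 and 10.95 on replicates 1, 2 and 3 (10.57 ± 0.37, SD, n = 3). It stood 4.32 ± 0.18 (SE) above the threshold (limma adjusted p = 2.58e-05) and was above background in all 10 alternatives. Replicate 3 was higher than the mean of the others by 0.58, a difference larger than that of 72.8% of the genes above background, and by 0.18 after quantile normalization.

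The Nfkbia promoter is shown because Nfkbia is known as a target gene of NF-kappaB. It is given as for Edar, from RefSeq GRCm38.p6, chr12:55492648-55492897 on the minus strand. Capitals mark the only match to the kappaB consensus motif of 10 bases, found on the opposite strand 29 to 20 bases before the start. This consensus had a match on either strand in 7.25% of the 32851 promoters. Of the 7 members with a promoter in the table, Nfkbia alone had a match to it, and Edar alone had a match to the Lef and Tcf core. Here too a match describes the letters and does not by itself show binding.
Nfkbia: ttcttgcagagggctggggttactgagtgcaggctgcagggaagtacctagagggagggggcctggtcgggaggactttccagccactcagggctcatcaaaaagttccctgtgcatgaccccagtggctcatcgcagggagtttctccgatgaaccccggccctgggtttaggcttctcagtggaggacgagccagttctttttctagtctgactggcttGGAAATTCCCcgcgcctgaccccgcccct

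**Figure D2:**
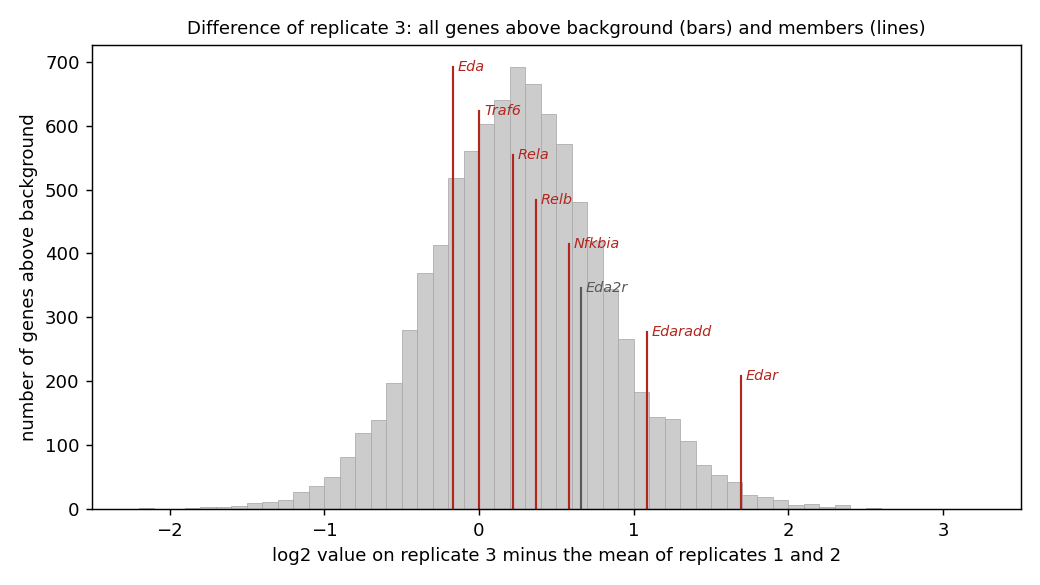
Number of genes above background (vertical axis) by their log2 value on replicate 3 minus the mean of replicates 1 and 2 (horizontal axis), with a line at the difference of each member (red, above background; grey, not), whose heights carry no value. Edar at 1.69 and Edaradd at 1.09 lie to the right of most genes. Eda at -0.17, Traf6 at 0.0031 and Rela at 0.22 lie left of the median of 0.26.

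Over the 8 measured members, the difference of replicate 3 had a median of 0.47, against 0.22 for all 17097 genes. After quantile normalization these medians were 0.12 and -0.10. Of the 8 measured members 6 were highest on replicate 3, as were 63.1% of all genes. Each litter was on 1 array, so litter, cell number and array cannot be told apart.

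Other genes of the pathway were taken from 6 lists by role, without the members. Of 57 measured genes 34 were above background, and 52.5% of all genes were. In the steps from ligand release to the IKK complex 8 of 11 were called (median 0.84 above the threshold). Furin, the gene of a protease that releases ectodysplasin, had a mean of 8.62 ± 0.26 (SD, n = 3), and Traf2, a relative of Traf6, 6.75 ± 0.18. Tab2 and Tab3, whose products bring the kinase TAK1 to Traf6, were both called. Tab2 stood at 9.72 ± 0.26, and Tab3 was highest on replicate 3, with 7.85, 8.09 and 9.06. Map3k7, the TAK1 gene, was also highest there, with 8.50, 8.54 and 9.33. Of this list 7 of 11 genes (63.6%) were highest on replicate 3, near the 63.1% of all genes. After quantile normalization the median difference was 0.02 for the list and -0.10 for all genes. Ikbkb, a catalytic subunit of the IKK complex, had 8.52, 8.63 and 8.84. The genes not called were Traf1 (5.29 ± 0.16), Traf5 (6.54 ± 0.37) and Tab1 (6.42 ± 0.30). Traf2 lay close to the threshold (0.50 above it, limma adjusted p = 0.0177) and lost its call with the 99th percentile and without replicate 1 or 2 (0.58 and 0.39 above it, adjusted p = 0.0793 and 0.212), while Traf5 was called without replicate 3 (0.45, adjusted p = 0.0117).

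Of the remaining subunit and inhibitor genes 5 of 7 were above background (median 1.10), beside 52.5% of all genes (median 0.63). Nfkb2, whose product is the partner of Relb, had 8.66, 8.66 and 8.61, and Rel, another subunit, stood at 6.88 ± 0.25 (SD, n = 3). Rel was not called without replicate 2 (0.60 above the threshold, adjusted p = 0.0748) or with the 99th percentile of receptor genes (0.27, adjusted p = 0.143). Among the relatives of Nfkbia, Nfkbib (7.81 ± 0.10), Nfkbiz (8.48 ± 0.62) and Bcl3 (7.35 ± 0.09) were called. Nfkbie (6.27 ± 0.11) and Nfkbid (5.56 ± 0.30) were not. Nfkbiz had its lowest value on replicate 3, at 7.78, against 8.69 and 8.97 on replicates 1 and 2. Negative regulators reached 4 of 5 (median 1.37). Tnfaip3 encodes the deubiquitinating protein A20 and is an NF-kappaB target. It had 6.95, 7.25 and 8.65 and was highest on replicate 3, as were 63.1% of all genes. The difference to the mean of the others was 1.55, larger than that of 98.4% of the genes above background. After quantile normalization the difference was 1.16. Its partner gene Tnip1 stood at 9.26 ± 0.47, Tnip2 at 7.58 ± 0.34 and Otud7b at 7.82 ± 0.04, while the deubiquitinase gene Cyld (5.52 ± 0.17) was not above background. The mean of both Tnfaip3 probe sets was not called (0.21 above the threshold, adjusted p = 0.369).

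Among other receptors and ligands of the tumour necrosis factor family 7 of 11 were above background (median 0.74), beside 52.5% of all genes (median 0.63). Tnfrsf19, which encodes the Edar relative Troy, had 10.40, 10.40 and 10.11 on replicates 1, 2 and 3, with little spread (10.30 ± 0.17, SD, n = 3; 4.05 above the threshold, limma adjusted p = 1.20e-05). Tnfrsf1a, a receptor gene of tumour necrosis factor, was highest on replicate 3, with 8.30, 8.21 and 9.23. Of this list 5 of 11 genes were highest there, beside 63.1% of all genes. The receptor genes Ngfr (8.61 ± 0.25) and Cd40 (8.31 ± 0.24) were also called, as were Ltbr (7.26 ± 0.23) and Tnfrsf1b (6.97 ± 0.04). Tnfrsf1b lost its call with the 99th percentile of receptor genes (0.35 above it, adjusted p = 0.069). Cd40 had no value in the setting without shared probe sets. With tissue-restricted genes as background Cd40 and Ngfr lost their calls (0.53 and 0.83 above it, limma adjusted p = 0.19 and 0.052). Cd40 is best known from leukocytes and Ngfr from neural cells. Of the 7 leukocyte markers 2 were above background, Cd68 at 8.83 ± 0.26 and Fcer1g at 7.29 ± 0.45, and the part of such cells in these values was not tested. Tnfrsf11a, the RANK gene, was not above background (5.78 ± 0.28), nor was the gene of its ligand, Tnfsf11 (5.15 ± 0.20). Fas (5.03 ± 0.55) and Lta (5.09 ± 0.19) were below the threshold as well.

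Known ectodysplasin targets of skin appendages were called in 5 of 11 cases (45.5%, median 0.51), a share near the 52.5% of all genes. The Wnt inhibitor gene Dkk4 had 8.33, 8.14 and 8.10 (8.19 ± 0.12, SD, n = 3). Fst, the follistatin gene, was high on replicate 2, with 8.81, 10.24 and 8.68. Wnt10a (7.01 ± 0.33), Wnt10b (7.21 ± 0.14) and Shh (6.76 ± 0.12) were above background by less than 1 log2 unit. Shh lost its call without replicate 1 or 2 (0.47 and 0.51 above the threshold, limma adjusted p = 0.142 and 0.119). On all arrays Shh was also 0.51 above it, so the loss without replicate 2 came with nearly the same mean. With the 99th percentile of receptor genes the calls of Shh (0.15, adjusted p = 0.393) and Wnt10a (0.40, adjusted p = 0.0547) were lost. Fgf20 (5.95 ± 0.49), Ccn2 (5.41 ± 0.20) and Madcam1 (5.94 ± 0.24) were not above background. Cxcl10, a chemokine gene, had 5.62, 7.75 and 7.09 and was called without replicate 1 only (1.19 above the threshold, adjusted p = 0.00107; all arrays, adjusted p = 0.220).

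General NF-kappaB targets reached 5 of 12 (41.7%, median 0.29), beside 52.5% of all genes (median 0.63). Icam1, the gene of an adhesion molecule, had 10.05, 11.04 and 10.69 on replicates 1, 2 and 3 (4.34 above the threshold, limma adjusted p = 4.32e-05). Gadd45b (9.09 ± 0.51, SD, n = 3), Sod2 (8.91 ± 0.39), Vcam1 (7.87 ± 0.14) and Birc3 (7.57 ± 0.34) were called, and encode proteins of stress response, superoxide removal, adhesion and survival. The chemokine genes Cxcl1 (4.87 ± 0.48), Cxcl2 (5.04 ± 0.72), Ccl2 (6.57 ± 0.41) and Ccl5 (5.95 ± 0.26) were not above background. Ccl2 was called without replicate 3 (0.53 above the threshold, adjusted p = 0.00171). Of the 12 general targets 4 were highest on replicate 3 (median difference -0.22), and of the 11 ectodysplasin targets 5 (median 0.05). Of all genes 63.1% were highest there (median 0.22).

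**Figure D3:**
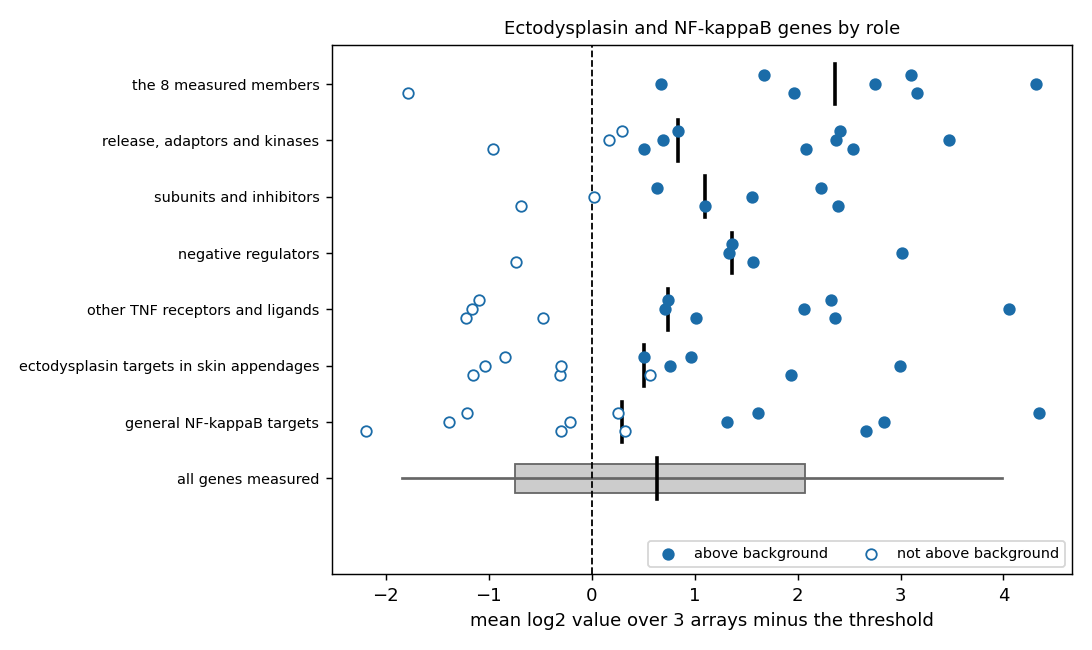
Mean log2 value over the 3 arrays minus the threshold (horizontal axis) for each measured gene of the 8 members and the 6 lists (filled, above background; open, not), with a black bar at the median of each list and, for all genes, a box over the central 50% with lines to the 5th and 95th percentiles. The median of the members is 2.36 and those of the lists lie between 0.29 and 1.37, beside 0.63 for all genes.

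Among the members, Traf6 and Nfkbia were called under every alternative and Rela under every one that gave it a value. With the tissue-restricted genes as background 4 members were above it (Edaradd, Traf6, Rela and Nfkbia), and 18.5% of all genes were. Of the member probe sets 4 were, beside 14.3% of all probe sets. With the brightest antigenomic control 5 members were above it, Eda besides these, and 31.6% of all genes. Of the member probe sets 5 were, beside 26.3% of all. The 99th percentile of the receptor genes left 6 members and 45.8% of all genes above it. The mean of probe sets gave 5 members and 47.8% of all genes, and the setting without shared probe sets 5 of 7 members and 49.5% of all genes. Without replicates 1, 2 and 3, 7, 6 and 7 members were called, beside 50.4%, 50% and 56.4% of all genes. Quantile normalization and the fit without a trend each gave 7 members and 52.7% of all genes.

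**Figure D4:**
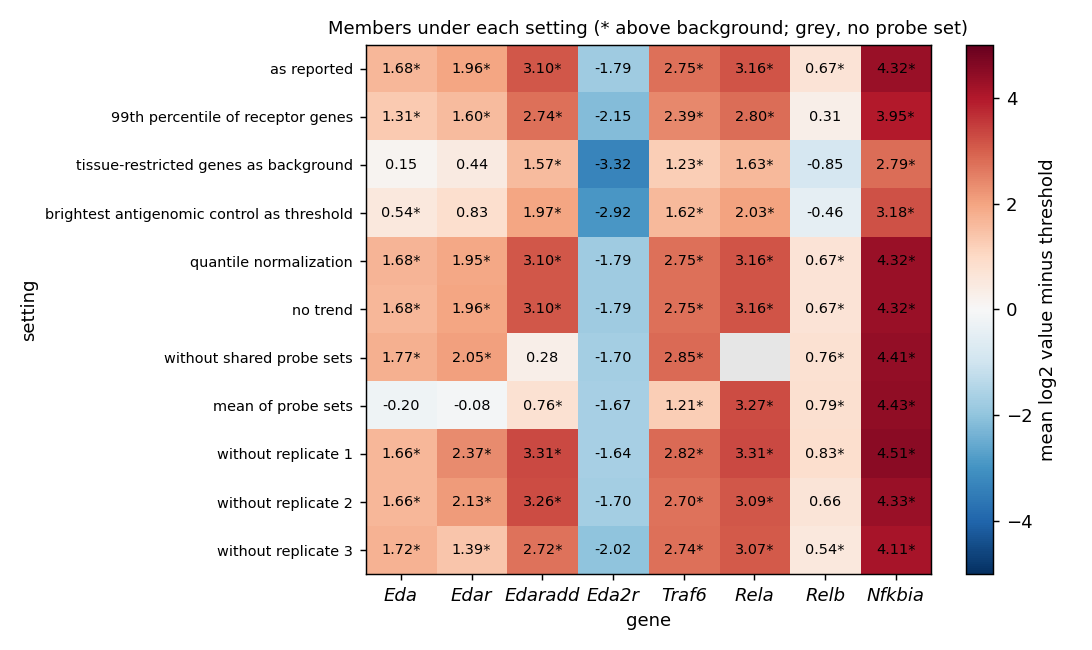
Mean log2 value minus the threshold (colour and printed number) for each member (columns) under the reported setting and 10 alternatives (rows), where a star marks a gene above background. Nfkbia and Traf6 carry a star in every row and Eda2r in none, while Eda, Edar, Edaradd and Relb lose theirs in some.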

How the data were processed

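RNA of 3 samples of 1 group was measured on Affymetrix arrays, 1 litter per array. The authors deposited log2 expression values per probe set, made with RMA from affy according to the submitters' processing notes, which give no version or setting. RMA corrects background, normalizes and summarises probes, and compresses differences of weak probe sets. Whether the 3 arrays were normalized together is not given in the sources used here. Genes were named from the platform annotation.

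The threshold was subtracted from each value, and limma 3.58.1 in R 4.3.3 tested the mean against 0 (intercept fit, eBayes with trend, one-sided p, Benjamini-Hochberg over 17097 genes or 28898 probe sets). In simulated data with 17097 genes, 68%, 88%, 100% and 100% of 50 genes at 0.5, 1, 2 and 3 above the threshold were called. Of 6547 genes at or below it 13 were called. The simulated noise was normal and independent, with the SD of each gene. It held no error of the threshold, no choice of probe set and no shift of a whole array, so real rates can differ. Each SE and p-value rests on a variance that limma moved towards a trend over all genes. Neither therefore measures the spread of a single gene over the 3 litters. A fit without 1 replicate estimates the variance anew from fewer arrays. A call lost or kept in such a fit does not by itself show whether the gene depends on that litter. The p-values take the threshold as known. Unless the fit over probe sets is named, the printed SE and adjusted p are those of the fit over genes. The number of arrays limits the precision.

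Members and lists were chosen with earlier results of these data known. Named were all members, the first 6 called and the first 4 other genes of each pathway list, and the first 3 and 2 of each marker list, not all of which are printed. No gene was named for likeness in pattern, since 3 arrays are too few. Traf3, Chuk, Foxi3, Pthlh and Areg were not analysed here. Python 3.11.15, numpy 2.4.6, pandas 2.3.3 and matplotlib 3.10.9 were used besides.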

Additional observations from a re-analysis of the deposited data

How the results depend on the processing

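Of 10 alternatives, 2 raised the threshold most and moved most counts. With tissue-restricted genes as background (33 genes), 4 members, 4 member probe sets and 7 pathway genes were above it, of 3164 genes and 4145 probe sets in all. Counts per list were 1 for release, adaptors and kinases, 0 for subunits and inhibitors, 1 for negative regulators, 1 for other receptors and ligands, 1 for ectodysplasin targets and 3 for general targets. With the brightest antigenomic control, 5 member probe sets and 20 pathway genes were above it, of 5399 genes and 7610 probe sets. The same lists then had 5, 3, 2, 4 and 2, and general targets stayed within 1.5 times their count. With the 99th percentile, ectodysplasin targets had 3. Where limma called 0 subunit and inhibitor genes, 2 had an unadjusted p under 0.05, and the other alternatives gave 3 to 5.

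Means of called genes that turned below the threshold with tissue-restricted genes were Relb -0.85, Traf2 -1.02, Rel -0.89, Bcl3 -0.43, Tnfaip3 -0.16, Tnip2 -0.20, Tnfrsf1b -0.81, Ltbr -0.51, Shh -1.02, Wnt10a -0.77, Wnt10b -0.56, Birc3 -0.21, Cdh1 -0.11, Fcer1g -0.49, Pecam1 -0.15, Egfl7 -0.48 and Pmel -0.44. With the antigenomic control they were Relb -0.46, Traf2 -0.63, Rel -0.50, Bcl3 -0.033, Tnfrsf1b -0.42, Ltbr -0.12, Shh -0.62, Wnt10a -0.37, Wnt10b -0.17, Fcer1g -0.092, Egfl7 -0.089 and Pmel -0.050. The probe set 1421376_PM_at of Traf6 was at -0.27 with tissue-restricted genes, and 1417856_PM_at of Relb at -0.85 and -0.46. With the mean of probe sets, Eda was at -0.20 and Edar at -0.085. The cause of these changes is the higher threshold or the lower probe sets by construction. Of the other values of named genes and member probe sets, 878 kept their call or lack of one, 46 lost and 6 gained a call in the same direction. The 878 include 35 that were uncalled in both settings with a mean on the other side of the threshold. Leaving out 1 replicate moved no count by over 1.5 times. No paired analysis was possible because there was 1 group. For values close to the threshold, as for Relb, the call depends on the choice of threshold and on a variance estimated from few arrays.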
